A study of Mus musculus with 9 samples.

Results

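The 10 genes described here encode the neuronal calcium/calmodulin kinases and the calcium-dependent phosphatase calcineurin: Camk2a, Camk2b, Camk2d, Camk2g, Camk4, Camkk2, Ppp3ca, Ppp3cb, Ppp3cc and Ppp3r1. They were taken by name from the 23412 gene symbols of a bulk RNA sequencing table of mouse hippocampus, and all 10 were among the 14336 genes with at least 1 TPM (transcripts scaled by length and to a fixed library total) in at least 3 of the 9 libraries. The libraries came from WT mice at postnatal day 21 and form 3 groups of 3. PFOS P8-14 pups received perfluorooctane sulfonate, a persistent fluorinated surfactant, on postnatal days 8 to 14 in the milk of dams gavaged daily with 1 mg/kg. PFOS P1-7 pups received it the same way on days 1 to 7, and control pups are labelled sham. The series asks in which postnatal window the compound affects development of the hippocampus. Strain, sex, litter and the dose that reached the pups are not stated, and nothing says that the libraries of a group came from separate animals, so each p-value measures only the spread between these libraries, which may be technical.

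A rise of calcium in a neuron loads calmodulin, which then switches on opposing arms. CaMKII is a holoenzyme of alpha, beta, gamma and delta subunits (Camk2a, Camk2b, Camk2g, Camk2d) that phosphorylates synaptic proteins and is required for long-term potentiation in the hippocampus. Camkk2 encodes an upstream kinase that activates CaM kinase IV (Camk4), a nuclear kinase that phosphorylates the transcription factor CREB. Calcineurin pairs a catalytic A subunit (alpha, Ppp3ca; beta, Ppp3cb; gamma, Ppp3cc) with a calcium-binding B subunit (Ppp3r1), and it removes phosphate from NFAT factors and many synaptic proteins, with a known role in long-term depression.

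TPM scales reads by transcript length within a library, so levels of different genes can be compared, but it keeps no sequencing depth, and no counting error could be attached to any value. Every column summed to 1000000 within rounding, and 13810 to 14220 symbols reached 1 TPM. The choroid plexus transcript Ttr stood at 9446 to 11626 TPM in 5 libraries and at 35.1 to 107.7 TPM in the other 4, with both kinds in every group. The libraries also differed in a trend with transcript length: the Spearman rho, across genes, between the deviation of a gene from its 9-library mean and its length was 0.17, -0.20 and 0.31 in the PFOS P8-14 libraries, 0.13, 0.48 and 0.18 in the PFOS P1-7 libraries, and 0.19, -0.42 and -0.52 in the control libraries. Control replicate 1 thus stood apart from the other control libraries. It also had the lowest summed level of 10 myelin genes of all 9 libraries, 9738 TPM, against 14236 and 16115 TPM in the other control libraries, and the highest sum of 9 pan-neuronal genes, 7057 TPM, against 5602 and 5766 TPM. Results that rest on it are given with and without it.

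Camk2a was the most abundant of the 10 transcripts in every group, with a mean of 2112 TPM over the 9 libraries. The lowest mean of the 10 was 19.6 TPM, for Camk2d. By mean level over the 9 libraries Camk2a ranked 29 of 14336 tested genes, Ppp3ca ranked 102, Camk2b 105 and Ppp3r1 132, whereas Ppp3cc ranked 7025 and Camk2d 7520. In the PFOS P8-14 group the means ran in the order Camk2a, Ppp3ca, Camk2b, Ppp3r1, Ppp3cb, Camk2g, Camkk2, Camk4, Ppp3cc and Camk2d. The order was the same in the PFOS P1-7 group, and in the control group Camk2b stood above Ppp3ca. The library values of Ppp3ca and Camk2b, of neighbours Ppp3r1 and the gene just above it, and of Ppp3cc and Camk2d overlapped in all 3 groups, and those of Camk2g and Camkk2 overlapped in the control group, so these neighbours have no settled order. The alpha subunit made up 64.2% ± 1.73 of the summed CaMKII TPM in the PFOS P8-14 group, 65.0% ± 1.35 in the PFOS P1-7 group and 60.1% ± 4.93 in the control group (SD, n = 3 each). Camk2b supplied 31.9%, 31.3% and 35.8% of it in the same groups, Camk2g 3.30%, 3.21% and 3.46%, and Camk2d 0.623%, 0.516% and 0.646%. Of the summed catalytic calcineurin TPM, Ppp3ca supplied 81.9% ± 1.68 in the PFOS P8-14 group, 82.4% ± 1.16 in the PFOS P1-7 group and 78.9% ± 2.69 in the control group (SD, n = 3 each).

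**Figure D1:**
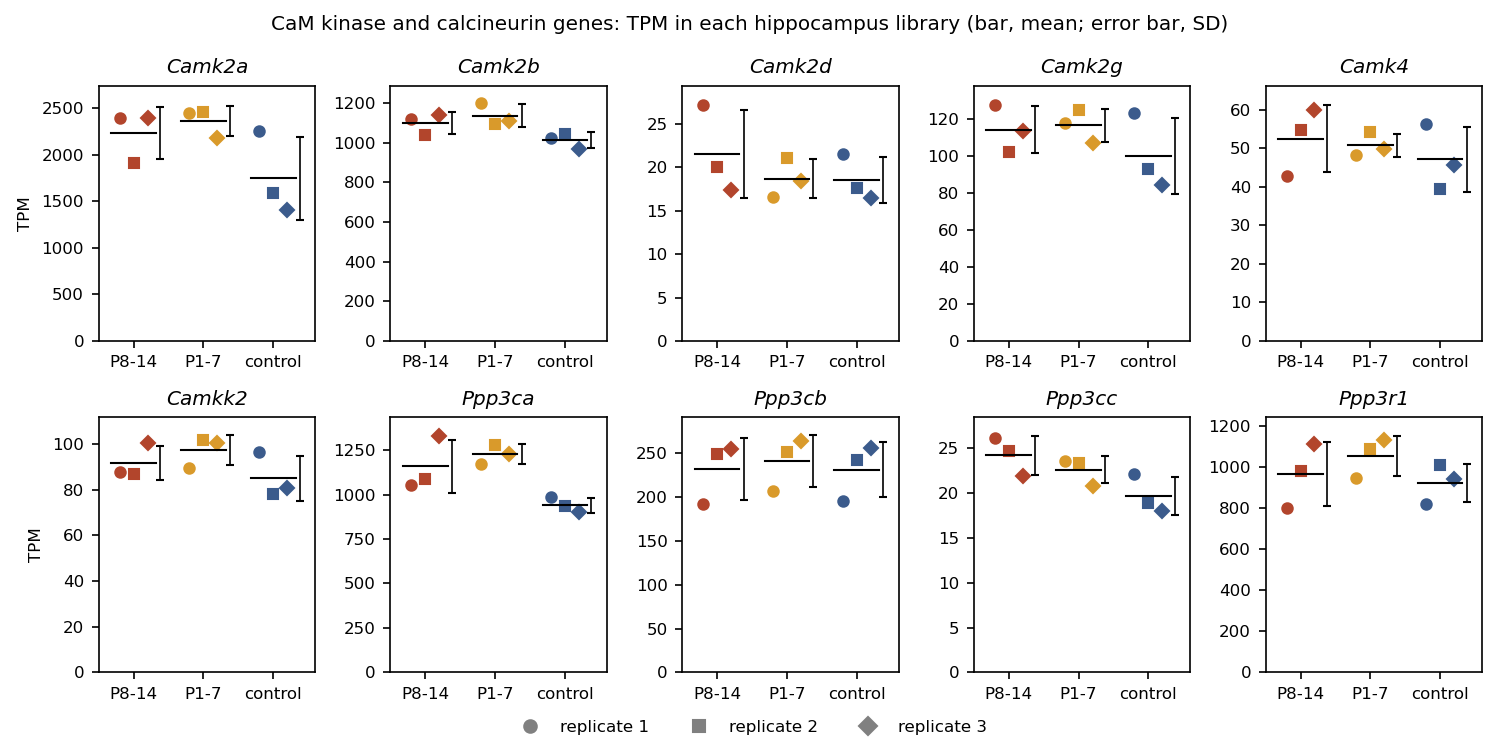
TPM of each of the 10 genes in the PFOS P8-14, PFOS P1-7 and control libraries (points, shaped by replicate; horizontal bar, mean; error bar, SD, n = 3; each y axis starts at 0). Camk2a lay between 1908 and 2462 TPM in the exposed libraries, and its control libraries spread between 1408 and 2251 TPM; Ppp3ca was at or above 1055 TPM in every exposed library and at or below 985 TPM in every control library.

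No member passed an adjusted p of 0.05 in any comparison. The test was limma on log2(TPM + 1) over all 14336 genes, with Benjamini-Hochberg adjustment, and 0% of genes passed for PFOS P8-14 against control, for PFOS P1-7 against control, or between the exposure windows; on this scale the change of a low gene is understated. All 10 members had a mean above control in both exposed groups, where 62.1% of all genes lay above control in the PFOS P8-14 comparison and 65.5% in the PFOS P1-7 comparison. The 2 comparisons share the control libraries, and 8 of 10 members stayed higher in each after median-of-ratios scaling. With that scaling the members' median was 0.12 for PFOS P8-14 and 0.11 for PFOS P1-7, beside 0.005 and 0.011 for all genes. The share of all genes higher was not counted in that setting. The median log2 difference of the 10 was 0.17 for PFOS P8-14 and 0.19 for PFOS P1-7, beside 0.06 and 0.09 for all tested genes. Without control replicate 1 the members' median was 0.29 for PFOS P8-14, with 8 of 10 higher, and 0.26 for PFOS P1-7, with 9 of 10 higher. The all-gene medians were then 0.09 and 0.11. Without control replicate 3 the members' median was 0.10 for PFOS P8-14, with 10 of 10 higher, and 0.14 for PFOS P1-7, with 9 of 10 higher. The all-gene medians were then 0.04 and 0.07. At an unadjusted p below 0.05, Ppp3ca and Ppp3cc were higher in PFOS P8-14 pups, where 6.33% of genes were higher at that level, and Camk2a and Ppp3ca were higher in PFOS P1-7 pups, where 12.5% were. No member was lower at that level, where 4.65% and 5.79% of genes were. Over all genes, 1573 had an unadjusted p below 0.05 in the PFOS P8-14 comparison (907 higher, 666 lower) and 2627 in the PFOS P1-7 comparison (1797 higher, 830 lower). With median-of-ratios scaling the split was 590 higher and 1011 lower for PFOS P8-14, and 1034 higher and 1411 lower for PFOS P1-7. In bulk tissue, fewer cells of a type and less RNA per cell cannot be told apart.

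**Figure D2:**
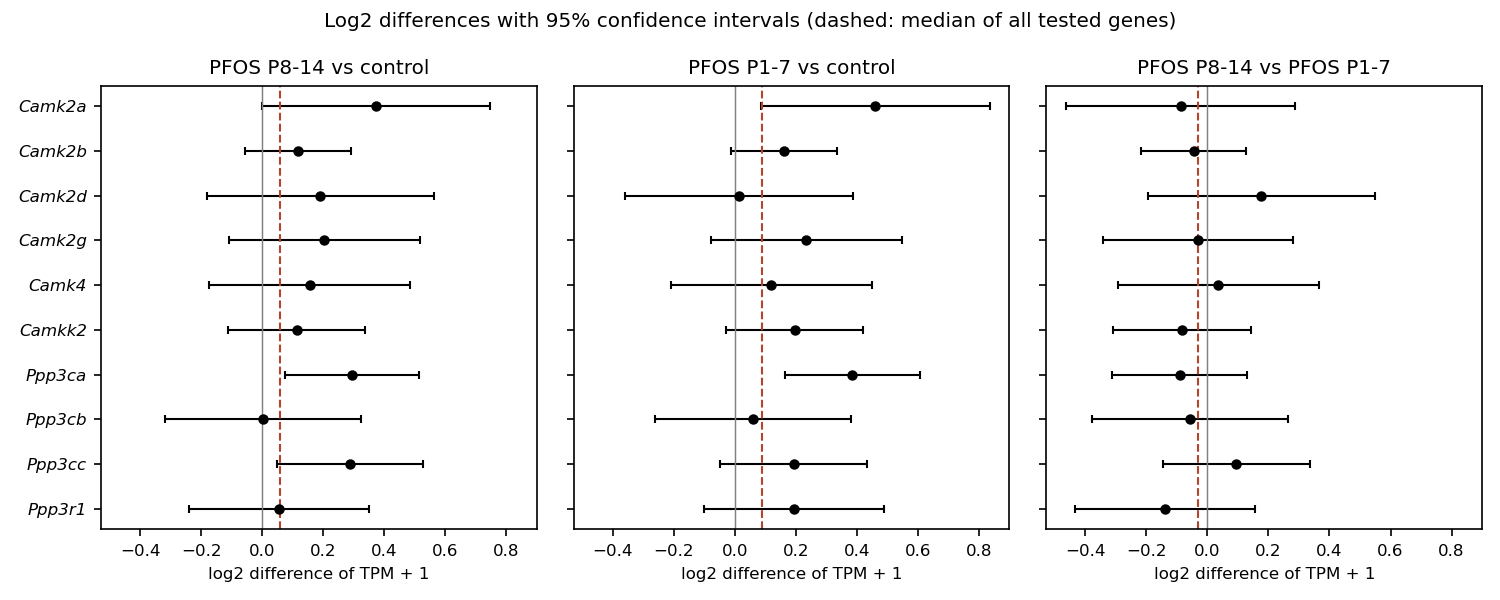
Log2 difference of each gene with its 95% confidence interval for PFOS P8-14 against control, PFOS P1-7 against control and PFOS P8-14 against PFOS P1-7 (grey line, 0; dashed line, median of all 14336 genes). The intervals of Ppp3ca lie above 0 against control in both exposed groups, those of Ppp3cc in PFOS P8-14 pups and of Camk2a in PFOS P1-7 pups do too, and every interval between the exposure windows includes 0.

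Camk2a, the alpha subunit that dominates CaMKII of forebrain excitatory neurons, had higher means in both exposed groups than in controls, and its libraries overlapped those of the controls. It measured 2389.7, 1908 and 2389 TPM in PFOS P8-14 pups, 2442, 2462 and 2173 TPM in PFOS P1-7 pups, and 2251, 1584 and 1408 TPM in control pups. Control replicate 1 lay within the range of the exposed libraries, while the other control libraries lay below all 6 of them. The mean was 1.28-fold that of controls in PFOS P8-14 pups, with a log2 difference of 0.37 (SE 0.17, limma adjusted p = 0.455). In PFOS P1-7 pups it was 1.35-fold, with a log2 difference of 0.46 (SE 0.17, limma adjusted p = 0.222).

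Camk2b, whose beta subunit binds actin filaments and so anchors the holoenzyme in spines, varied far less. It measured 1122, 1036 and 1141 TPM in PFOS P8-14 pups, 1201, 1096 and 1107 TPM in PFOS P1-7 pups, and 1026, 1046 and 969.9 TPM in control pups. Every PFOS P1-7 library stood above every control library, whereas 1 PFOS P8-14 library fell within the control range. Across all genes, 12.3% had every PFOS P1-7 library above every control library, and 7.31% had every PFOS P8-14 library above. No member lay below control in every library of an exposed group, as 5.99% of genes did for PFOS P8-14 and 6.56% for PFOS P1-7. With the length and GC trend removed, as described below, the PFOS P1-7 libraries of Camk2b overlapped the control libraries. The log2 difference of Camk2b was 0.12 (SE 0.08, limma adjusted p = 0.543) for PFOS P8-14 and 0.16 (SE 0.08, limma adjusted p = 0.294) for PFOS P1-7.

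Camk2g, the gamma subunit, varied across the libraries much as Camk2a did, at a lower level. It measured 127.8, 102.0 and 113.4 TPM in PFOS P8-14 pups, 118.2, 124.8 and 106.9 TPM in PFOS P1-7 pups, and 123.2, 92.9 and 84.2 TPM in control pups. Control replicate 1 again lay among the exposed libraries and the others below them all. The log2 difference was 0.20 (SE 0.14, limma adjusted p = 0.550) for PFOS P8-14 and 0.23 (SE 0.14, limma adjusted p = 0.379) for PFOS P1-7. Camk2d, the delta subunit best known from heart, had the lowest mean of the 10 transcripts in each group, with libraries that overlapped those of Ppp3cc. It measured 27.2, 20.04 and 17.4 TPM in PFOS P8-14 pups, 16.6, 21.0 and 18.5 TPM in PFOS P1-7 pups, and 21.6, 17.6 and 16.5 TPM in control pups. PFOS P8-14 replicate 1 was its highest library, and the 3 groups overlapped. Camk2d differed from control by 0.19 on the log2 scale (SE 0.17) in PFOS P8-14 pups and by 0.01 (SE 0.17) in PFOS P1-7 pups, and the PFOS P1-7 value turned to -0.0653 with median-of-ratios scaling.

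The nuclear arm, Camk4 and Camkk2, an upstream kinase that activates it, overlapped with controls in both exposed groups. Camk4 measured 42.9, 54.7 and 60.0 TPM in PFOS P8-14 pups, 48.4, 54.1 and 49.9 TPM in PFOS P1-7 pups, and 56.2, 39.4 and 45.7 TPM in control pups. Camk4 differed from control by 0.16 on the log2 scale (SE 0.15, limma adjusted p = 0.649) for PFOS P8-14 and 0.12 (SE 0.15, limma adjusted p = 0.659) for PFOS P1-7. Camkk2 measured 87.8, 87.1 and 100.4 TPM in PFOS P8-14 pups, 89.6, 101.7 and 100.3 TPM in PFOS P1-7 pups, and 96.3, 77.9 and 80.7 TPM in control pups. As with Camk2a, control replicate 1 was the control library nearest to the exposed ones. The log2 difference of Camkk2 was 0.11 (SE 0.10, limma adjusted p = 0.631) for PFOS P8-14 and 0.20 (SE 0.10, limma adjusted p = 0.321) for PFOS P1-7. An antisense gene on the opposite strand overlaps exons of Camk4. The library kit keeps strand, and whether the counting used it is not given in the sources used here.

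Ppp3ca, the main catalytic subunit of calcineurin in brain, was the one member whose libraries stood wholly above the controls in both exposed groups. Taken singly, 7.31% of all genes did so for PFOS P8-14 and 12.3% for PFOS P1-7. The share doing so in both, which use the same control libraries, was not counted. With the length and GC trend removed, as described below, Ppp3ca stood wholly above control for PFOS P1-7 only. Ppp3ca measured 1055, 1089.6 and 1330.1 TPM in PFOS P8-14 pups, 1171, 1281 and 1230.15 TPM in PFOS P1-7 pups, and 985.4, 934.2 and 900.6 TPM in control pups. The lowest exposed library was PFOS P8-14 replicate 1 and the highest control library was replicate 1, and the control libraries lay close together. It averaged 1158 ± 150 TPM in PFOS P8-14 pups, 1227 ± 54.9 TPM in PFOS P1-7 pups and 940.1 ± 42.7 TPM in control pups (SD, n = 3 each). The log2 difference was 0.29 (SE 0.10, 95% interval 0.07 to 0.52, limma adjusted p = 0.426) for PFOS P8-14. For PFOS P1-7 it was 0.38 (SE 0.10, 95% interval 0.16 to 0.61, limma adjusted p = 0.182). By unadjusted p, Ppp3ca ranked 472 of 14336 genes in the PFOS P8-14 comparison and 247 in the PFOS P1-7 comparison.

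The other catalytic subunits did not share one pattern. Ppp3cb measured 191.4, 248.7 and 254.7 TPM in PFOS P8-14 pups, 206.9, 250.7 and 263.4 TPM in PFOS P1-7 pups, and 195.4, 242.0 and 255.6 TPM in control pups. The groups covered nearly the same range, and in each of them the library numbered 1 was the lowest. Ppp3cb differed from control on the log2 scale by 0.0017 (SE 0.14, 95% interval -0.32 to 0.32) for PFOS P8-14 and 0.06 (SE 0.14, 95% interval -0.26 to 0.38) for PFOS P1-7, and both values were negative, at -0.0572 and -0.0243, with median-of-ratios scaling. Ppp3cc, a catalytic subunit best known from testis, measured 26.1, 24.7 and 21.9 TPM in PFOS P8-14 pups, 23.6, 23.4 and 20.9 TPM in PFOS P1-7 pups, and 22.1, 18.9 and 18.0 TPM in control pups. Control replicate 1 was again the highest control, just above the lowest PFOS P8-14 library. The log2 difference of Ppp3cc was 0.29 (SE 0.11, limma adjusted p = 0.426) for PFOS P8-14 and 0.19 (SE 0.11, limma adjusted p = 0.353) for PFOS P1-7. An antisense gene overlaps its exons on the opposite strand.

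Ppp3r1, which encodes a calcium-binding B subunit, measured 802.0, 982.3 and 1111 TPM in PFOS P8-14 pups, 946.3, 1089.6 and 1133 TPM in PFOS P1-7 pups, and 821.8, 1009 and 940.4 TPM in control pups. The groups overlapped, and replicate 1 was the lowest library in each. Its log2 difference was 0.06 (SE 0.13, limma adjusted p = 0.867) for PFOS P8-14 and 0.19 (SE 0.13, limma adjusted p = 0.428) for PFOS P1-7. Of its transcript, 14.7% of 50-base stretches also occur in Wdr92, an overlapping gene on the same strand that was listed at 5.04 to 7.28 TPM, so a small part of its reads could have been assigned either way. Ppp3r2, the B subunit best known from testis, did not exceed 0.45 TPM.

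**Figure D3:**
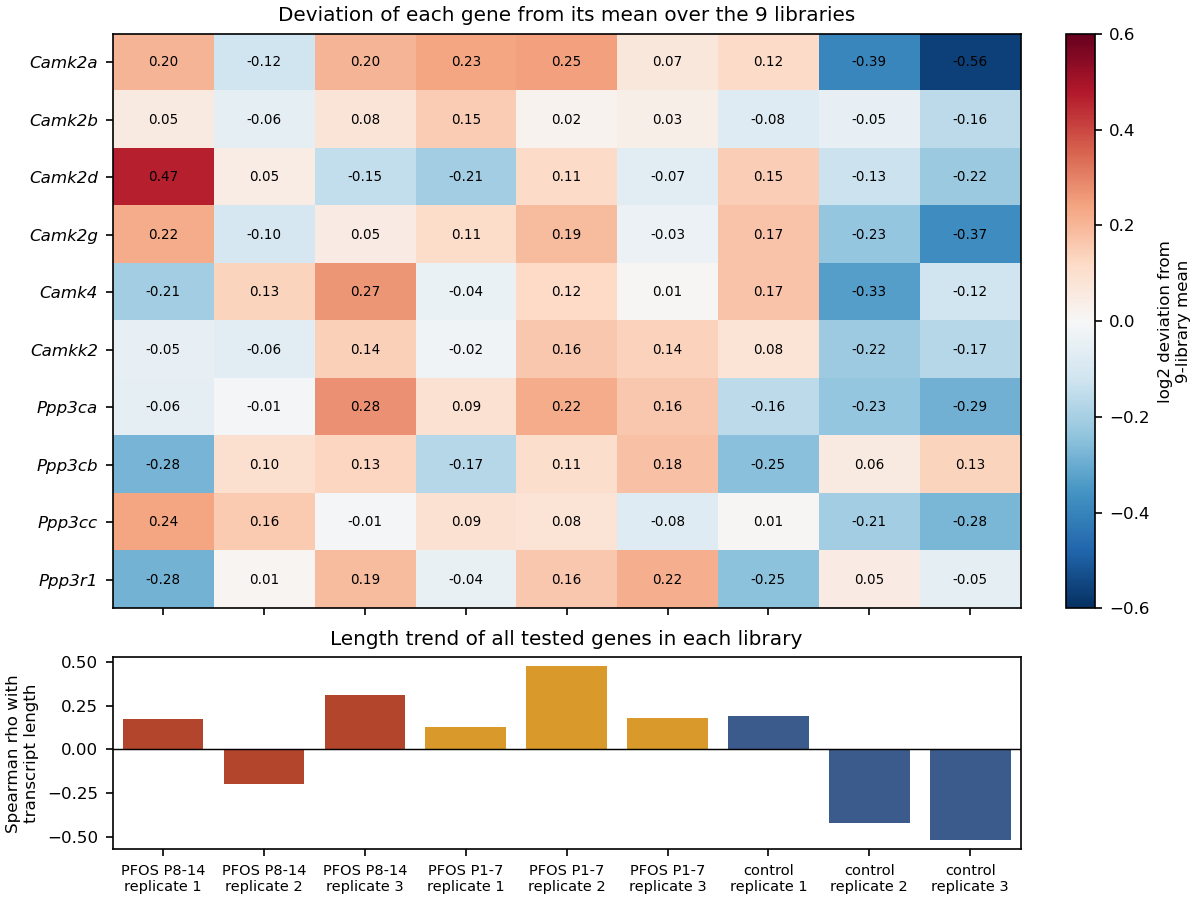
Log2 deviation of each gene from its mean over the 9 libraries (upper panel, red above and blue below the mean) over the length trend of all tested genes with an annotated transcript in each library (lower panel, Spearman rho). Control replicates 2 and 3, with the most negative length trends of -0.42 and -0.52, hold most of the blue of Camk2a and Camk2g, while Ppp3cb and Ppp3r1 are, within each group, lowest in the library numbered 1.

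Which genes moved together from library to library was described with Pearson correlations of log2(TPM + 1) over the 9 libraries for all 45 pairs of members. Camk2a and Camk2g had r = 0.95 (exact permutation p = 0.000278, adjusted over the 45 pairs 0.0125) and Spearman rho = 0.88 (exact permutation p = 0.00308, adjusted 0.137). Their r was 0.80 without the 2 libraries farthest from the median of Camk2a, 0.96 after the group means were subtracted and 0.87 with the length trend removed. Ppp3cb and Ppp3r1 had r = 0.87 (exact permutation p = 0.00166, adjusted 0.0373) and rho = 0.73 (exact permutation p = 0.0311, adjusted 0.241). Their r was 0.57 without the 2 farthest libraries, 0.92 within groups and 0.67 with the length trend removed. These were the 2 pairs whose adjusted Pearson p fell below 0.05, no pair passed by Spearman, and 35 of the 45 coefficients were positive. Ppp3ca, the partner catalytic gene, had r = 0.26 with Ppp3cb (exact permutation p = 0.484, adjusted 0.641). The libraries rich and poor in Ttr number 5 and 4, too few for a correlation within each.

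Because Ppp3cb and Ppp3r1 were high and low in the same libraries, the sequence around their start sites is shown. That of Camk2b, which did not share their order in TPM, is set beside them. Over the 9 libraries Camk2b had r = 0.21 with Ppp3r1 and -0.24 with Ppp3cb. With the length trend removed these were 0.90 and 0.55, so the contrast with Camk2b holds only before that removal. Each stretch runs from 250 bases before to 50 bases after the RefSeq start site (GRCm38.p6), 5′ to 3′ on the strand of the gene. Ppp3cb lies at chr14:20546524-20546823 on the minus strand, Ppp3r1 at chr11:17159048-17159347 on the plus strand and Camk2b at chr11:6065699-6065998 on the minus strand. Capitals mark TGACG or its reverse complement CGTCA, the half-site of the CREB-binding element.
Ppp3cb: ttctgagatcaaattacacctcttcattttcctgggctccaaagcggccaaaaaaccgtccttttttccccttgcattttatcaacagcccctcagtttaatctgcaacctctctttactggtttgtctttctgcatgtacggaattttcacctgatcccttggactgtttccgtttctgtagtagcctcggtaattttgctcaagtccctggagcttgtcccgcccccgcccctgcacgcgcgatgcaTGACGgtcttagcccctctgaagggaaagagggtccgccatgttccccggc
Ppp3r1: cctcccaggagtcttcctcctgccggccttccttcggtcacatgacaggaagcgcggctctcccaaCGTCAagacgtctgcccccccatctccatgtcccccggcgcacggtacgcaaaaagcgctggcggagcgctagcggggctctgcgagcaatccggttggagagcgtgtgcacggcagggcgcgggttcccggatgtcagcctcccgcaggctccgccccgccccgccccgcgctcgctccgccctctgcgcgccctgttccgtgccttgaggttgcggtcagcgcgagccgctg
Camk2b: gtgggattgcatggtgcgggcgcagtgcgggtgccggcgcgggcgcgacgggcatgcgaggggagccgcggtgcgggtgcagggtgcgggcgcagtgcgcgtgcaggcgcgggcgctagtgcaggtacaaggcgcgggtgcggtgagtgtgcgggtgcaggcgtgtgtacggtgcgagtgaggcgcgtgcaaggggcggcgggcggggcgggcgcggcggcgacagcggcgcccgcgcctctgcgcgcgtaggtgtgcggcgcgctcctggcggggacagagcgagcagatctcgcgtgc

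Ppp3cb holds 1 half-site, next to the start site at -1, and Ppp3r1 holds 1 at -184, where positions count from the start site; Camk2b holds none. On both strands, 20.8% of 32851 promoters of the same length hold TGACG. None of the 3 holds the full element TGACGTCA, which 1.79% of promoters hold. GGAAA, the core bound by NFAT factors, occurs 4 times in the Ppp3cb stretch and 0 times in the others, with 61.3% of promoters holding it. GGGCGG, the GC box, occurs 2 times for Ppp3cb, 4 times for Ppp3r1 and 3 times for Camk2b, and in 35.7% of promoters. The GC content of the stretches was 51.0% for Ppp3cb, 70.7% for Ppp3r1 and 77.3% for Camk2b. A match describes these letters only.

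Ratios formed within a library do not depend on the scaling of that library, and they ask whether the subunit make-up or the balance of kinase to phosphatase differed. The ratio of calcineurin catalytic TPM to CaMKII TPM was nearly equal in the 3 groups: 0.410 ± 0.0547 in PFOS P8-14 pups, 0.412 ± 0.0375 in PFOS P1-7 pups and 0.421 ± 0.0626 in control pups (SD, n = 3 each; exact 3-group permutation p = 0.943). The control mean depended on 1 library: the ratio was 0.352 in control replicate 1 and 0.436 and 0.474 in the other control libraries. The exposed libraries ran from 0.347 to 0.445. The log2 ratio differed from control by -0.03 in PFOS P8-14 pups and -0.02 in PFOS P1-7 pups. Without control replicate 1 these values were -0.16 and -0.15. The calcineurin and CaMKII sums both had higher means in the exposed groups. The CaMKII sum was 3464 ± 345 TPM in PFOS P8-14 pups, 3629 ± 197 TPM in PFOS P1-7 pups and 2880 ± 487 TPM in control pups (SD, n = 3 each). The calcineurin catalytic sum was 1414 ± 173 TPM in PFOS P8-14 pups, 1490.4 ± 79.5 TPM in PFOS P1-7 pups and 1191 ± 14.8 TPM in control pups (SD, n = 3 each).

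Camk2a exceeded Camk2b by 2.02 ± 0.157-fold in PFOS P8-14 pups, 2.08 ± 0.147-fold in PFOS P1-7 pups and 1.72 ± 0.412-fold in control pups (SD, n = 3 each). Control replicate 1 had a ratio of 2.19, within the exposed range of 1.84 to 2.25, against 1.51 and 1.45 in the other control libraries. Ppp3ca exceeded Ppp3cb by 5.04 ± 0.586-fold, 5.15 ± 0.497-fold and 4.14 ± 0.799-fold in the PFOS P8-14, PFOS P1-7 and control groups (SD, n = 3 each). The ratio of the B subunit Ppp3r1 to the summed catalytic subunits was 0.681 ± 0.0462 in PFOS P8-14 pups, 0.708 ± 0.0372 in PFOS P1-7 pups and 0.776 ± 0.0832 in control pups (SD, n = 3 each). The exact 3-group permutation p was 0.232 for Camk2a to Camk2b, 0.154 for Ppp3ca to Ppp3cb and 0.236 for Ppp3r1 to the catalytic sum, each 0.314 after adjustment over the 4 ratios. Between any 2 groups, 3 libraries against 3 cannot give an exact two-sided p below 0.1. The log2 ratio of Camk2a to Camk2b differed from control by 0.26 (exact permutation p = 0.4) in PFOS P8-14 pups and by 0.30 (exact permutation p = 0.3) in PFOS P1-7 pups. For Ppp3ca to Ppp3cb the differences were 0.29 and 0.33 (exact permutation p = 0.2 each). Without control replicate 1 they were 0.44 and 0.49 for Camk2a to Camk2b, and 0.44 and 0.48 for Ppp3ca to Ppp3cb. Without control replicate 3 they were 0.15 and 0.19, and 0.18 and 0.22. For Ppp3r1 to the catalytic sum they were -0.19 and -0.13. These became -0.27 and -0.22 without control replicate 1, and -0.12 and -0.06 without control replicate 2. Every ratio overlapped between every pair of groups. For the subunit ratios the overlap with control came from control replicate 1 alone. Ppp3ca to Ppp3cb was 5.04 in that library and 3.86 and 3.52 in the other control libraries, against 4.38 to 5.66 in the exposed ones. Ppp3r1 to the catalytic sum was 0.683 in it and 0.844 and 0.801 in the others, against 0.630 to 0.748 in the exposed ones.

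**Figure D4:**
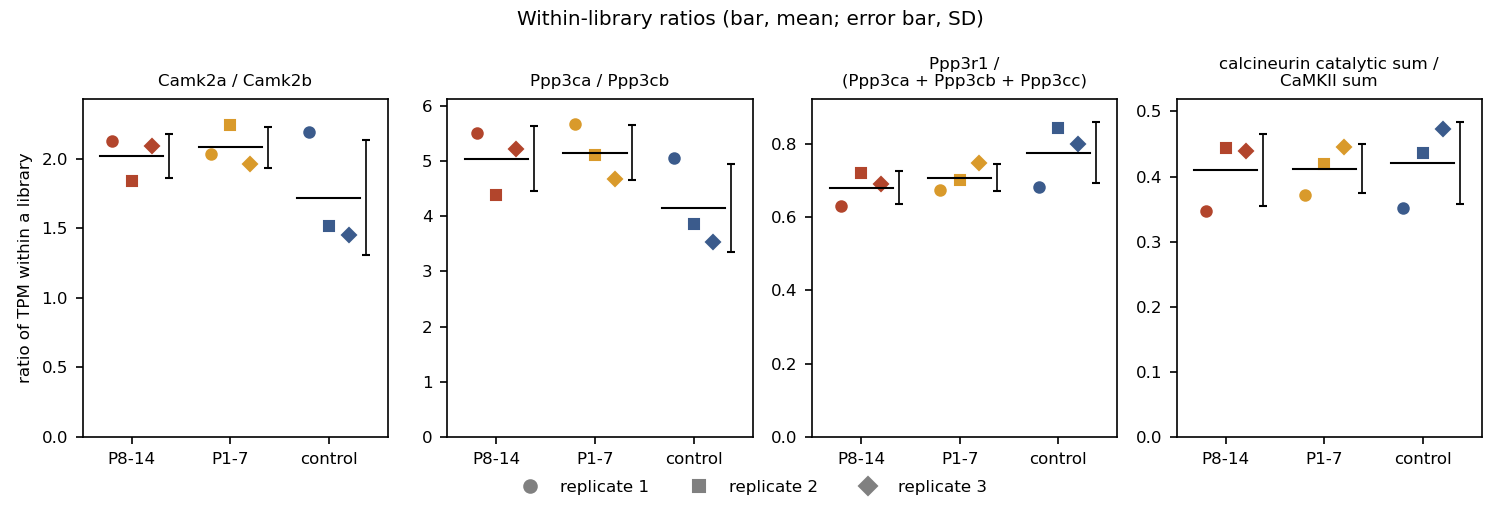
TPM ratios within each library of the PFOS P8-14, PFOS P1-7 and control groups (points, shaped by replicate; bar, mean; error bar, SD, n = 3; y axes start at 0). The mean ratio of the phosphatase sum to the kinase sum is 0.410, 0.412 and 0.421. Its control libraries lie at 0.352 for replicate 1 and at 0.436 and 0.474 for the others. The control libraries of Camk2a to Camk2b split into 2.19 for replicate 1 and 1.51 and 1.45 for the others.

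Between the exposure windows no member differed beyond the spread of the libraries. The log2 difference of PFOS P8-14 against PFOS P1-7 ran from -0.14 for Ppp3r1 to 0.18 for Camk2d, and 3 of the 10 members were above 0, beside 38.8% of all genes. The interval for Camk2a was -0.46 to 0.29, and that for Ppp3ca was -0.31 to 0.13. The libraries of the windows overlapped for all 10, where 1.90% of genes were higher and 4.15% lower in every PFOS P8-14 library. All 10 limma adjusted p-values were 0.9998, and 0 members had an unadjusted p below 0.05, where 0.467% of genes were higher and 0.635% lower at that level. In the moderated F test over the 3 groups, the smallest member p was 0.00796 for Ppp3ca (adjusted 0.373), followed by 0.0474 for Camk2a (adjusted 0.437), and 11.3% of genes had an unadjusted p below 0.05.

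The size of the Camk2a difference depended on which control libraries were used. Without control replicate 3, the log2 difference was 0.23 (limma adjusted p = 0.788) for PFOS P8-14 and 0.32 (limma adjusted p = 0.502) for PFOS P1-7, and limma called 0 members and 0 genes, with 845 and 1444 genes at an unadjusted p below 0.05. Without control replicate 1, limma called 1252 genes higher in PFOS P8-14 pups and 2023 higher in PFOS P1-7 pups, which is 8.76% and 14.2% of 14286 genes. Among the members, Camk2a (log2 difference 0.57, limma adjusted p = 0.0213) and Ppp3cc (0.37, limma adjusted p = 0.0474) were then higher in PFOS P8-14 pups. Camk2a (0.66, limma adjusted p = 0.0101), Ppp3ca (0.42, limma adjusted p = 0.0257) and Camk2g (0.39, limma adjusted p = 0.0354) were higher in PFOS P1-7 pups. Limma array weights, which gave that library a weight of 0.248, left 0 members called for PFOS P8-14, where 4.55% of genes were called higher. For PFOS P1-7 they called Camk2a (0.58, limma adjusted p = 0.0185), Ppp3ca (0.42, limma adjusted p = 0.0171) and Camkk2 (0.29, limma adjusted p = 0.0357), where 15.0% of genes were called higher. In the 3-group F test 1 member, Camk2a (adjusted p = 0.0222), was called without control replicate 1 beside 10.5% of genes, and Camk2a (adjusted p = 0.0378) and Ppp3ca (adjusted p = 0.0357) were called with weights beside 11.3% of genes.

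The remaining control libraries carried the most negative length trends, and 9 of the 10 members have a longest coding transcript of at least 2717 bases. Camk2a has one of 4970 bases, Ppp3ca 4758 and Ppp3cc 1970. By the median coding transcript several members are much shorter, with 1356.5 bases for Camk2a, 822 for Camk2g and 1084 for Camkk2. For Ppp3ca and Ppp3cc that median is 3476 and 1903 bases. Lengths of all genes are not set beside these, and the part of length in the members' differences was not tested. With a smooth trend on length and GC content removed from each of the 9 libraries, the log2 difference of Camk2a was 0.24 for PFOS P8-14 and 0.29 for PFOS P1-7, and that of Ppp3ca was 0.17 and 0.20. Ppp3cc moved little, to 0.27 and 0.17. The median of the 10 members was 0.07 in each comparison, 8 of 10 were higher in each, and 0 were called. The all-gene median was then -0.008 for PFOS P8-14 and -0.004 for PFOS P1-7, and the share of all genes higher was not counted. With the trend removed, Ppp3cc was the only member with every PFOS P8-14 library above every control library, beside 5.29% of genes. For PFOS P1-7 the only such member was Ppp3ca, beside 6.56% of genes. The separation of Ppp3ca for PFOS P8-14 and that of Camk2b for PFOS P1-7 were thus lost. Camk2d then stood lower in every PFOS P1-7 library, beside 9.22% of genes. With the trend removed and control replicate 1 left out as well, a setting added after the data were seen, 0 members were called. Camk2a stood at 0.34 (limma adjusted p = 0.113) and 0.40 (limma adjusted p = 0.0748), and Ppp3cc at 0.36 (limma adjusted p = 0.0622) for PFOS P8-14. In that setting 2.37% of all genes were called higher for PFOS P8-14, 3.10% for PFOS P1-7 and 2.89% were called in the 3-group F test, so 0 of 10 members is near the share over all genes. With the median coding transcript in place of the longest as the measure of length, Camk2a (0.56, limma adjusted p = 0.0427) was called for PFOS P8-14, and Camk2a (0.66, limma adjusted p = 0.0222) and Camk2g (0.44, limma adjusted p = 0.04999) for PFOS P1-7, again without control replicate 1. Over all genes 3.36% were then called higher for PFOS P8-14, 4.73% for PFOS P1-7 and 4.35% were called in the 3-group F test. A score of choroid plexus genes as a covariate left 0 members called, with Ppp3ca at 0.37 (limma adjusted p = 0.276) for PFOS P8-14 and 0.47 (limma adjusted p = 0.124) for PFOS P1-7.

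**Figure D5:**
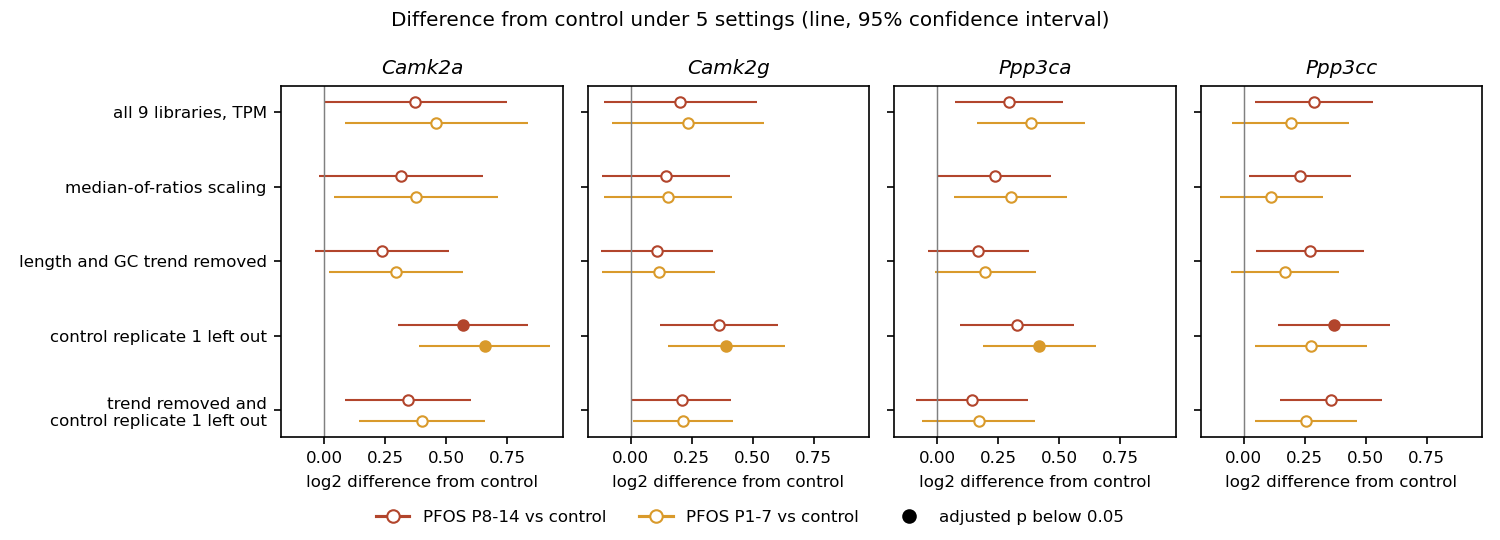
Log2 difference from control of Camk2a, Camk2g, Ppp3ca and Ppp3cc for PFOS P8-14 and PFOS P1-7 under 5 settings (line, 95% confidence interval; filled point, limma adjusted p below 0.05). Filled points occur where control replicate 1 is left out, with Camk2a at 0.57 and 0.66. None remain once the length and GC trend by longest transcript is removed too, with Camk2a at 0.34 and 0.40. With the median transcript instead, a setting not drawn, 1 member was called for PFOS P8-14 and 2 for PFOS P1-7, Camk2a among them in each.

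No marker list held a called gene, and the lists differed in how many of their genes lay above control. Of all tested genes, 62.1% lay above control for PFOS P8-14 and 65.5% for PFOS P1-7. Markers of dentate granule neurons were higher in 9 of 10 genes in PFOS P8-14 pups and in 10 of 10 in PFOS P1-7 pups. Their summed level ranged from 235.5 to 280.8 TPM in PFOS P8-14 pups, 267.5 to 295.0 TPM in PFOS P1-7 pups and 170.1 to 251.8 TPM in control pups. The 9 pan-neuronal genes summed to 6409 to 6947, 6169.6 to 6759 and 5602 to 7057 TPM in the same order of groups, with 8 and 5 of 9 higher than control and median log2 differences of 0.10 and 0.02. All 10 myelin genes were higher in each exposed group, with sums of 14890.3 to 15895 TPM in PFOS P8-14 pups, 13379 to 19164 TPM in PFOS P1-7 pups and 9738 to 16115 TPM in control pups. All 16 choroid plexus markers were higher in each exposed group, and their sums spanned 270.6 to 11122 TPM, 187.7 to 13016 TPM and 160.8 to 11068 TPM in the PFOS P8-14, PFOS P1-7 and control groups, with Tmem72 and Steap1 at 0 in PFOS P8-14 replicate 3. No marker of the dentate, pan-neuronal, myelin or choroid plexus lists was at 0 in any other library. Of the other lists, CA1 pyramidal markers were higher in 4 of 8 in each exposed group, with medians of -0.02 and -0.02, and astrocyte and interneuron markers each in 5 of 8. CA3 markers were higher in 5 of 7 in each group, thalamus markers and neocortex and subiculum markers in 6 of 8, and striatum markers in 4 of 8 for PFOS P8-14 and 3 of 8 for PFOS P1-7. The part of dentate, neuronal and myelin content in the members' values was not tested.

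Lists of the pathway around the 10 genes held 0 called genes in any comparison. They were written from general knowledge but with earlier results of these data known, so their counts are descriptive and not an independent test. The counts of higher genes in these lists stand beside 62.1% of all genes for PFOS P8-14 and 65.5% for PFOS P1-7. Of 14 other CaM-dependent kinases, 9 were higher in each exposed group, with medians of 0.06 for PFOS P8-14 and 0.09 for PFOS P1-7, equal to those of all genes at this precision. Camk1d, a CaM kinase I isoform, had the smallest F test p of the list. It averaged 91.5 ± 9.31 TPM in PFOS P8-14 pups, 99.6 ± 4.44 TPM in PFOS P1-7 pups and 69.9 ± 7.31 TPM in control pups (SD, n = 3 each), with log2 differences of 0.38 (limma adjusted p = 0.424) and 0.51 (limma adjusted p = 0.181). Calmodulin genes and calmodulin buffers were higher in 5 of 11 in each group, with medians of -0.01 and -0.11. Calb2, the calcium buffer calretinin, measured 150.2, 92.7 and 73.3 TPM in PFOS P8-14 pups, 78.5, 62.0 and 50.9 TPM in PFOS P1-7 pups, and 119.9, 112.2 and 83.6 TPM in control pups. Calb2 differed from control by -0.05 on the log2 scale (limma adjusted p = 0.946) for PFOS P8-14 and -0.72 (limma adjusted p = 0.220) for PFOS P1-7.

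CaMKII inhibitors, anchors and phosphatases were higher in 8 of 14 for PFOS P8-14 and 9 of 14 for PFOS P1-7, with medians of 0.06 and 0.10. Ppm1e, a phosphatase that switches off CaM kinases, led this list with log2 differences of 0.31 (limma adjusted p = 0.426) and 0.37 (limma adjusted p = 0.2099). Of 11 synaptic substrates of CaMKII, 9 were higher in each group, with medians of 0.11 and 0.11. Kalrn, a synaptic exchange factor that enlarges spines, measured 211.4, 180.1 and 234.9 TPM in PFOS P8-14 pups, 218.1, 260.3 and 227.9 TPM in PFOS P1-7 pups, and 211.0, 158.1 and 146.7 TPM in control pups. Its log2 difference was 0.29 (limma adjusted p = 0.469) for PFOS P8-14 and 0.47 (limma adjusted p = 0.2099) for PFOS P1-7, and control replicate 1 was again the control nearest to the exposed libraries.

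Regulators and binding partners of calcineurin were higher in 9 of 11 tested genes for PFOS P8-14 and 7 of 11 for PFOS P1-7, with medians of 0.08 and 0.07. Rcan1, an inhibitor of calcineurin and itself an NFAT target, averaged 53.2 ± 1.38 TPM in PFOS P8-14 pups, 50.6 ± 3.33 TPM in PFOS P1-7 pups and 52.5 ± 1.78 TPM in control pups (SD, n = 3 each); it was added to the text after its values were seen. The list was led by Chp2, a calcineurin B homologue at only 1.01 to 3.38 TPM, with log2 differences of 0.59 (limma adjusted p = 0.426) and 0.39 (limma adjusted p = 0.349). Calcineurin substrates were higher in 14 of 15 for PFOS P8-14 and 13 of 15 for PFOS P1-7, with medians of 0.16 and 0.24. Mef2a, an activity-regulated transcription factor, measured 69.4, 60.8 and 80.5 TPM in PFOS P8-14 pups, 77.2, 81.7 and 73.2 TPM in PFOS P1-7 pups, and 62.2, 30.4 and 30.8 TPM in control pups. Its log2 difference was 0.83 (SE 0.24, limma adjusted p = 0.426) for PFOS P8-14 and 0.98 (SE 0.24, limma adjusted p = 0.181) for PFOS P1-7, and the split among its control libraries was the one seen for Camk2a.

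Genes of the path from CaM kinase IV to CREB were higher in 6 of 10 for PFOS P8-14 and 8 of 10 for PFOS P1-7, with medians of 0.03 and 0.24. Between the windows, 0 of 10 were higher in PFOS P8-14 than in PFOS P1-7 pups, where 38.8% of all genes were. The median of that difference was -0.14, beside -0.03 for all genes. Fos, an immediate-early gene induced through CREB, measured 9.50, 8.41 and 6.85 TPM in PFOS P8-14 pups, 9.01, 13.8 and 13.5 TPM in PFOS P1-7 pups, and 7.26, 9.27 and 7.23 TPM in control pups. Fos differed from control by 0.05 on the log2 scale (limma adjusted p = 0.914) in PFOS P8-14 pups and by 0.54 (limma adjusted p = 0.216) in PFOS P1-7 pups, and by -0.49 (limma adjusted p = 0.9998) between the windows. Bdnf, whose product supports synaptic strengthening, stood at 27.3, 31.9 and 36.0 TPM in PFOS P8-14 pups, 30.3, 38.6 and 38.4 TPM in PFOS P1-7 pups, and 29.2, 29.4 and 27.9 TPM in control pups; it too was added after its values were seen.

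Among 9393 tested genes with a mean of at least 10 TPM, the profiles most like that of Camk2a over the 9 libraries were those of Cnot1 (Pearson r = 0.994), Lman1 (0.993), Iqsec2 (0.992) and Zfp609 (0.992). Their r with Camk2a was 0.826 to 0.939 once the length trend was removed, and their longest coding transcripts measure 4676 to 8390 bases. The profiles most like that of Ppp3ca were those of Tm9sf2 (r = 0.973), Ttll7 (0.972), Gars (0.972), Pip4k2c (0.968) and Robo2 (0.967), and their r with the trend removed was 0.805 to 0.945. These coefficients describe the same 9 libraries, whose length trends differ and whose depth is unknown.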

How the data were processed

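RNA was extracted from hippocampus and made into stranded mRNA libraries, per the labels' protocols. The authors deposited 1 table of TPM per gene symbol, rounded to 2 decimals, with 1 column per library. The submitters' processing notes name build mm10, RSEM 1.3.3, STAR 2.5.3a, fastp 0.21.0 and bcl2fastq; the annotation is not given in the sources used here. Depth is unknown, and no batch is labelled.

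Genes reaching 1 TPM in 3 or more of 9 libraries were tested on log2(TPM + 1) with limma 3.58.1 in R 4.3.3 (1 mean per group, variance trend, two-sided, Benjamini-Hochberg over all genes, threshold 0.05). Ratios and correlations were tested by exact permutation. The procedures were tested on simulated data. Length and GC trends were removed by loess (span 0.5) for the 93.9% of tested genes with a GENCODE M21 transcript. A coding transcript was used where the gene had any, and a noncoding one otherwise. The longest transcript replaced the median one as the measure after a first look at the data. Promoters came from RefSeq, which held 5 of the 10 members. The members and lists were chosen with earlier results of these data known. Named are all members, the gene of smallest F test p in each pathway list, and the 5 genes most like Camk2a and Ppp3ca; exceptions are stated, and 1 gene that the rule names is not reported here. Alternatives covered pseudocounts of 0.1 and 5, no filter and a filter at 5 TPM, scaling, weights, the 2 compared groups alone, no variance trend, the length trend, a choroid plexus covariate, a replicate block and each library left out.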

Additional observations from a re-analysis of the deposited data

How the results depend on the processing

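The 0 members called in each comparison held under the pseudocounts, the filters, median-of-ratios scaling, the 2 compared groups alone, moderation without a trend, the length and GC trend removed and the choroid plexus covariate. Array weights called 3 members for PFOS P1-7 against control and 2 in the 3-group test. The trend removed with control replicate 1 left out was run with the median and with the longest transcript, both added after the data were seen. The median transcript called 1 member for PFOS P8-14, 2 for PFOS P1-7 and 1 in the 3-group test, and with the longest transcript 0 were called. Over all genes the median transcript called 908, 1215 and 624 genes in those comparisons, and the longest 630, 792 and 414. Leaving out 1 library gave 0 to 2 called for PFOS P8-14, 0 to 3 for PFOS P1-7 and 0 to 1 in the 3-group test, and all values above 0 came without control replicate 1. Between the windows 0 were called under every alternative run. Depth is unknown, so its limit on any value could not be given.

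Directions reversed as follows, where the cause was not tested. With median-of-ratios scaling, Ppp3cb was -0.0572 and Ppp3r1 -0.00323 for PFOS P8-14, and Camk2d was -0.0653 and Ppp3cb -0.0243 for PFOS P1-7. With the length and GC trend removed, Camkk2 was -0.0194 and Ppp3cb -0.0646 for PFOS P8-14, Camk2d was -0.20 and Ppp3cb -0.0832 for PFOS P1-7, and between the windows Ppp3cb was 0.0186 and the log2 ratio of calcineurin to CaMKII 0.0280. With array weights, Ppp3cb was -0.0255 for PFOS P8-14. Leaving out each library in turn, log2 differences reached -0.114 to 0.133 for Ppp3cb and -0.0521 to 0.183 for Ppp3r1 (PFOS P8-14 against control), -0.0704 to 0.121 for Camk2d and -0.0568 to 0.163 for Ppp3cb (PFOS P1-7 against control), and, between the windows, -0.145 to 0.0206 for Camk2a, -0.113 to 0.0482 for Camk2g, -0.0656 to 0.172 for Camk4 and -0.161 to 0.0738 for Ppp3cb. The log2 ratio of Camk2a to Camk2b reached -0.0825 to 0.0239 and that of Ppp3ca to Ppp3cb -0.101 to 0.0642 between the windows. The ratio of calcineurin to CaMKII reached -0.157 to 0.0821 for PFOS P8-14, -0.147 to 0.0687 for PFOS P1-7 and -0.0843 to 0.105 between the windows.

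The labels do not say whether the replicate numbers pair the libraries. Deviations of same-numbered libraries of different groups correlated between -0.47 and 0.53, and those of differently numbered ones between -0.60 and 0.67. With so few libraries, and Ttr-rich and Ttr-poor ones mixed, these values cannot decide whether a pairing exists. A fit with the replicate block called 0 members and 0 genes in each comparison. It had 2120 genes at an unadjusted p below 0.05 for PFOS P8-14 and 3112 for PFOS P1-7, against 1573 and 2627 without the block.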
